A study of Homo sapiens with 6 samples.

Results

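The histone genes measured here were the members of 5 replication-dependent families, the linker histone H1 and the core histones H2A, H2B, H3 and H4, together with 8 genes of histone variants. Members were chosen by gene symbol alone, from probe sets that the platform annotation assigns to 1 symbol, and each gene was read from its brightest probe set. This gave 75 genes of 18132 on the array, 67 in the replication-dependent families and 8 variants. Of the 75, 37 were bright enough to be tested and 38 lay below the filter on dim genes, which left out the lowest 25% of all genes by mean signal.

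The cells were TE-1, a human oesophageal squamous cell carcinoma line. Knockdown samples came from 1 stable EIF3C knockdown clone and control samples from the parental TE-1 cells, with 3 arrays in each group and no further allele or agent in the labels. EIF3C encodes a subunit of the translation initiation factor eIF3. The labels name neither another clone nor cells that carry a control construct, so the knockdown and the choice of clone cannot be told apart. They also do not say whether the 3 replicates of a group were separate cultures; if they were not, the p-values cover only technical spread.

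Histones package DNA into nucleosomes, in which DNA wraps around a core of H2A, H2B, H3 and H4 and is closed by a linker histone H1. The replication-dependent genes lie in clusters as many nearly identical copies, are transcribed mainly in S phase, and give mRNAs that end in a conserved stem-loop rather than a poly(A) tail; the stem-loop binding protein SLBP guides their 3' end processing and translation. Variant genes are expressed through the cell cycle as polyadenylated mRNAs, and their proteins replace the canonical ones at particular places. Polyadenylated forms are also known for some genes of the clusters, among them H2BC5, H2BC12, H2BC21 and H2AC6. The primer used to make the labelled cRNA is not given in the sources used here, so whether a probe set read the stem-loop form, a polyadenylated form or both was not tested. The rule by symbol also took in H1-10, a linker histone expressed outside S phase, the germ cell linker histones H1-6, H1-7 and H1-8, the antisense RNA H1-10-AS1 and the pseudogenes H1-9P and H2BC20P; 64 of the 67 genes code for protein.

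A pair of sequence elements is typical of these promoters and is shown for the genes on which the results turn. Promoter windows of 300 bases, 250 upstream of the start and 50 downstream, were found in RefSeq (GRCh38.p14) for 67 of the 75 members. The H1 box, searched as AAACACA on both strands, was in 7 of 9 windows of the H1 family and in 5.76% of all 27305 promoters. In H1-2, H1-3, H1-4 and H1-5 it lay in the forward direction with its first base 117 to 119 bases upstream of the start. In H1-1 and H1-7 the only match was on the reverse strand, at 183 and 82 bases. The count of windows is thus one of matching letters, wherever they lie. Of the 7 genes with a match, H1-7 was tested and not called, at 0.09. H1-4, H1-5 and H1-6, which also hold a match, were too dim to be tested. Below are the upstream stretches of the H1 genes H1-2, H1-3 and H1-1, which were higher in knockdown, and of H1-10, which was lower, with matches to AAACACA in capitals (in H1-1 the match is on the reverse strand, and H1-10 holds no match in its window).
H1-2, chr6:26056471-26056620, minus strand: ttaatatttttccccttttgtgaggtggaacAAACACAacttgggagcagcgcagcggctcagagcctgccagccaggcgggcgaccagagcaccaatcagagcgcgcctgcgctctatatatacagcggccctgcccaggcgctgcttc
H1-3, chr6:26234988-26235137, minus strand: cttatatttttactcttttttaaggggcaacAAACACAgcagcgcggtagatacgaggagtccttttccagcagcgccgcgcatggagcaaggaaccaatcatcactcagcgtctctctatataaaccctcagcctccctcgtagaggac
H1-1, chr6:26017788-26017987, minus strand: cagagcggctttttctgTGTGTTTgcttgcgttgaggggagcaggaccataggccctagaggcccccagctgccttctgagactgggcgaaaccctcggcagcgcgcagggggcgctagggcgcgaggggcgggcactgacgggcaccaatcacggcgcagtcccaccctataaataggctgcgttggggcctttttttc
H1-10, chr3:129316287-129316436, minus strand: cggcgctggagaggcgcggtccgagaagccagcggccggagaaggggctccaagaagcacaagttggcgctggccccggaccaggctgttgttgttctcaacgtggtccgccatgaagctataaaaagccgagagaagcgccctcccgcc

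The octamer ATTTGCAT, the element through which OCT1 is known to act on H2B genes, was in 14 of 18 windows of the H2B family and in 11 of 14 of the H2A family, against 1.80% of all promoters. H2A and H2B genes often lie head to head and share the DNA between their starts, so 1 octamer can be counted for both. Of the members, 11 such pairs had starts on opposite strands with 193 to 247 bases between them. The whole stretch between the starts is printed for 3 of these pairs, read on the strand of the H2B gene, which starts just after the last base. Capitals mark the octamer and TATAAA on either strand; where the 2 orientations of TATAAA overlap the capitals run together. TATAAA was in 11.95% of all promoter windows.
H2BC11 and H2AC11, chr6:27132796-27133042, minus strand: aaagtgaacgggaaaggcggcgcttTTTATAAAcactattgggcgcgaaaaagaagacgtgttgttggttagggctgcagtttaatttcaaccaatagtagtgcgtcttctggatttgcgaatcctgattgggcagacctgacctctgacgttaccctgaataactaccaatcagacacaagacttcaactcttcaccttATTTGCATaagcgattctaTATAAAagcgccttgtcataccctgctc
H2BC21 and H2AC20, chr1:149886683-149886917, minus strand: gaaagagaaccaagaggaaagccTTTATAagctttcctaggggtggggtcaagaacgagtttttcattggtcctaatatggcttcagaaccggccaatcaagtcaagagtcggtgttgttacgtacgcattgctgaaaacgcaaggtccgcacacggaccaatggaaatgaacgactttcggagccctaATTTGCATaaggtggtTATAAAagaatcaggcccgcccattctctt
H2BC4 and H2AC6, chr6:26123927-26124171, minus strand: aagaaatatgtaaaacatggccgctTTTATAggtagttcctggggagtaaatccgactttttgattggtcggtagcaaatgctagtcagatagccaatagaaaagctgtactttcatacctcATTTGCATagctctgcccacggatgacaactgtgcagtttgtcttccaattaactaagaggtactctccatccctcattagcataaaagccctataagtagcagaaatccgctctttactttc

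Signals were the authors' log2 values, with array medians between 6.09 and 6.11. The target was lower in every knockdown array: on the brightest of 5 probe sets shared by EIF3C and its near copy EIF3CL, the signal was 22.1% of control. Of 7 squamous or epithelial markers measured, CDH1, EPCAM, SFN, JUP and PERP had control means of 9.98 to 11.9, and the keratin genes KRT5 and KRT14 lay lower, at 5.91 and 5.85. CDH1 and EPCAM rose by 0.23 and 0.21, JUP and PERP fell by 0.23 and 0.47, and the other 3 were not called. Of 17 measured markers of fibroblasts, leukocytes and endothelium, 7 were bright enough to test, with control means of 5.08 to 6.21, and CDH5 rose by 0.46 and KDR fell by 0.26 among them. The fibroblast marker FAP was below the filter but stood 0.84 higher in knockdown, at 3.88 and 4.72. The part of these markers in the histone values was not tested. In bulk RNA, a change in the share of cells in S phase and a change in the RNA of each cell cannot be told apart.

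Histone genes moved in both directions in knockdown cells. The H1 genes H1-1, H1-2 and H1-3, the H2A genes H2AC6 and H2AC20, the H2B gene H2BC11 and both macroH2A genes rose, while H2AX, the variant phosphorylated at DNA breaks, fell to 47.9% of control and the H2B genes H2BC21, H2BC5 and H2BC12 fell. Of 37 members tested, 27 passed an adjusted p of 0.05, against 66.5% of all 13599 genes, so the number of calls was near the background. In the replication-dependent families 14 of 30 rose and 6 fell, with a median log2 difference of 0.15. Over all tested genes 32.4% rose, 34.1% fell, and the median was -0.03. Among the variants 2 of 7 rose and 5 fell, with a median of -0.24.

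Differences of at least 0.4 on the log2 scale were called for 12 members, 8 higher and 4 lower. That is 32.4% of the members tested, against 29.5% of all genes. In all 12 the knockdown arrays lay wholly on one side of the control arrays, as did 27 of the 37 members and 70.3% of all genes. Of the 37 members tested, 2 were called with a change of at least 2-fold, H2BC11 and H2AX, against 655 of all 13599 genes.

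**Figure D1:**
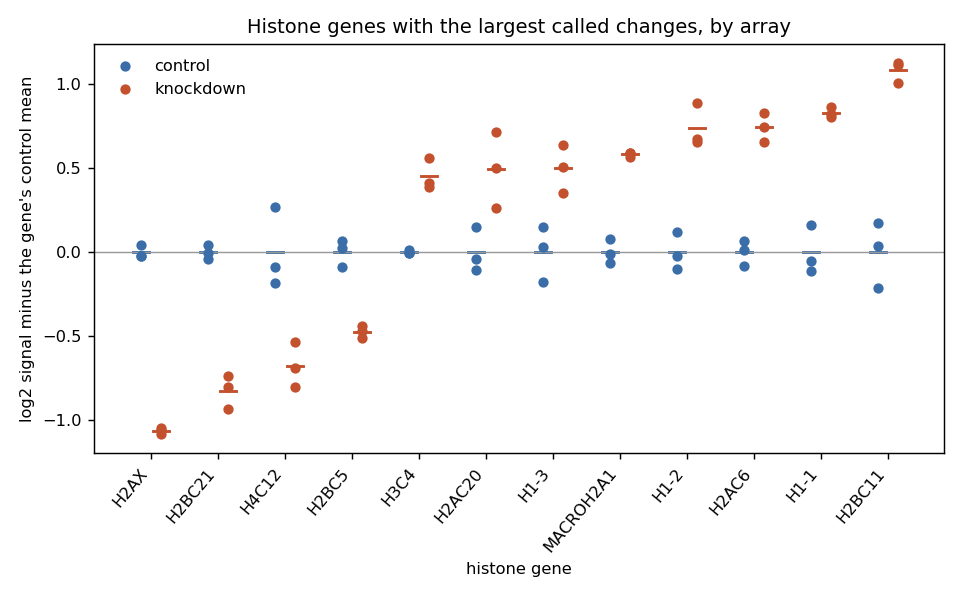
Log2 signal of each array minus the mean of the 3 control arrays (y axis) for the 12 histone genes called with a difference of at least 0.4 (x axis); points are arrays and short lines are group means. The 3 knockdown points of each gene lie apart from its 3 control points, from H2AX at -1.06 to H2BC11 at 1.08.

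**Figure D2:**
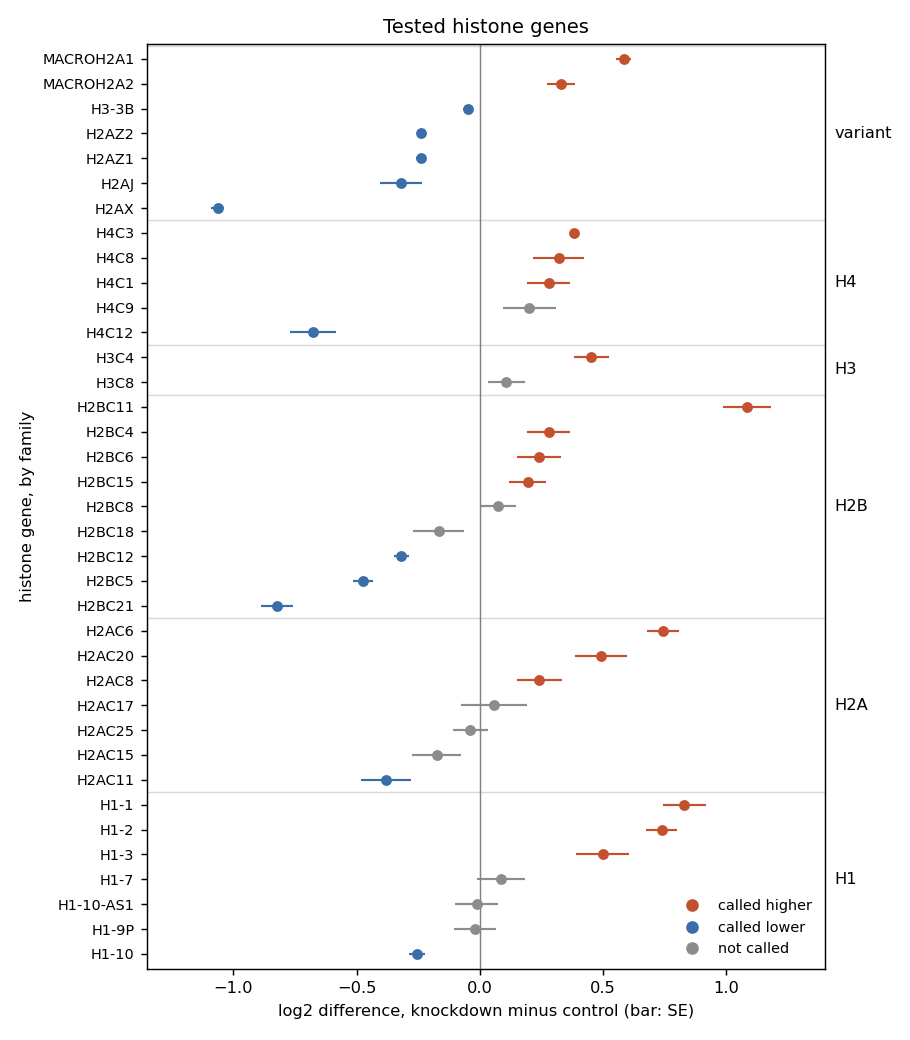
Log2 difference, knockdown minus control (x axis), of the 37 tested histone genes by family (y axis), with bars of 1 SE. Red genes were called higher, blue lower and grey were not called; the H2B family spans from -0.82 to 1.08.

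Among linker histones, which bind DNA at its entry to the nucleosome, H1-1, H1-2 and H1-3 rose and H1-10 fell, while the S-phase genes H1-4 and H1-5 were too dim to be tested. H1-2, one of the main linker histones of dividing cells, had log2 signals of 7.85, 8.07 and 7.93 in control and 8.62, 8.60 and 8.84 in knockdown. The groups did not overlap, with knockdown replicate 3 the highest, and the difference was 0.74 (SE 0.06, adjusted p = 1.72e-08). H1-1 read 4.93, 4.86 and 5.14 in control and 5.78, 5.84 and 5.80 in knockdown, a rise of 0.83 (SE 0.09, adjusted p = 2.34e-07). Its 3 knockdown arrays were almost level while the controls spread more widely.

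H1-3 read 4.51, 4.30 and 4.63 in control and 4.83, 4.99 and 5.12 in knockdown, a rise of 0.50 (SE 0.11, adjusted p = 0.000563). Its control mean of 4.48 was under 4.635, the lowest mean tested, so it passed the filter through its knockdown arrays. H1-10, the linker histone expressed outside S phase, went the other way, from 10.17 ± 0.04 to 9.92 ± 0.04 (mean ± SD, n = 3 each), a fall of 0.26 (adjusted p = 1.51e-06). A second, dimmer probe set of H1-10 stood at -0.11 and was not called. H1-7 at 0.09, the pseudogene H1-9P at -0.02 and the antisense RNA H1-10-AS1 at -0.01 were not called. The dim genes H1-4 and H1-5 stood at 0.34 and 0.14; with no filter, the former was called and the latter was not.

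In the H2A family 3 of 7 rose and 1 fell, which is 57.1% called against 66.5% of all genes. H2AC6, also known for a polyadenylated form, read 6.51, 6.66 and 6.60 in control and 7.24, 7.42 and 7.33 in knockdown, a rise of 0.74 (SE 0.06, adjusted p = 1.68e-08). Every knockdown array stood more than 0.5 above every control. H2AC20 read 5.24, 5.44 and 5.18 in control and 5.79, 5.55 and 6.0045 in knockdown, a rise of 0.49 (SE 0.11, adjusted p = 0.000561). Here control replicate 2 and knockdown replicate 2 came close to each other, and a second probe set at 0.17 was not called.

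H2AC8 rose by 0.24 (adjusted p = 0.0301) and H2AC11 fell by 0.38 (adjusted p = 0.00305). The call of H2AC8 was lost without control replicate 2 (0.13), without knockdown replicate 1 (0.21) and without knockdown replicate 2 (0.24), and with no intensity trend in the fit (adjusted p = 0.0522). H2AC17 at 0.06, H2AC25 at -0.04 and H2AC15 at -0.18 were not called.

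The H2B family, whose proteins pair with H2A in the nucleosome, had both the largest rise and the largest fall of the replication-dependent genes. H2BC11 read 4.92, 4.78 and 4.53 in control and 5.76, 5.86 and 5.87 in knockdown, a 2.12-fold rise (log2 difference 1.08, SE 0.10, adjusted p = 3.51e-08). The gap between the groups was wider than the spread within either. Its other probe sets stood at 0.48, also called, and at -0.12, which was not. H2BC4 rose by 0.28 (adjusted p = 0.00910), H2BC6 by 0.24 and H2BC15 by 0.19. The rise of H2BC15 lay within the range of differences of the array's non-human control probe sets (-0.22 to 0.20). As means of their probe sets, H2BC4 (0.18) and H2BC6 (0.13) were not called. The call of H2BC6 was lost when control replicate 1 or 3 or knockdown replicate 1 or 2 was left out (0.21 to 0.25), and that of H2BC15 without control replicate 1 or 2 or knockdown replicate 2 or 3 (0.15 to 0.20).

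H2BC21 read 7.16, 7.12 and 7.08 in control and 6.38, 6.19 and 6.32 in knockdown, a fall of 0.82 (SE 0.07, adjusted p = 6.20e-09). The control arrays were tight and no knockdown array came near them. The remaining 2 probe sets of H2BC21 hold the same values as each other in every array, were dimmer, and stood at 0.12 without a call. H2BC5 read 9.29, 9.33 and 9.17 in control and 8.82, 8.79 and 8.75 in knockdown, a fall of 0.47 (SE 0.04, adjusted p = 2.27e-08), and all 3 of its probe sets were called lower. H2BC12 fell from 10.51 ± 0.04 to 10.19 ± 0.04, by 0.32 (adjusted p = 6.93e-08), while a second probe set, at 0.19, was not called and the mean of both stood at -0.06 without a call. H2BC8 at 0.07 and H2BC18 at -0.17 were not called, but H2BC8 was as the mean of its probe sets (0.17) and H2BC18 without control replicate 2 (-0.27). The knockdown mean of H2BC18, 4.615, was under the lowest mean tested, 4.635, so it passed the filter through its control arrays.

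Only 2 genes of the H3 family were tested. H3C4 read 5.97, 5.97 and 5.99 in control and 6.54, 6.36 and 6.39 in knockdown, a rise of 0.45 (SE 0.07, adjusted p = 2.04e-05). The controls were nearly equal and knockdown replicate 1 was the highest. H3C8 did not pass on its brightest probe set (0.11, adjusted p = 0.223), but 2 of its other 3 probe sets were called higher, at 0.39 and 0.42, and the mean of all 4 rose by 0.27 (adjusted p = 0.00242).

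In the H4 family 3 of 5 rose and 1, H4C12, fell on its brightest probe set, beside 32.4% higher and 34.1% lower over all genes. H4C3 had high and close signals, 12.90 ± 0.02 in control and 13.28 ± 0.01 in knockdown, a rise of 0.38 (adjusted p = 3.96e-12) with 0.40 on its second probe set. H4C8 rose by 0.32 and H4C1 by 0.28; the call of H4C8 was lost without control replicate 1 (0.27) or knockdown replicate 1 (0.22). H4C9, at 0.20, was not called (adjusted p = 0.112). It was called without control replicate 3 (0.30), with quantile normalization (0.25) and as the mean of its probe sets (0.22). Its control mean of 4.59 was under 4.635, the lowest mean tested, so H4C9 passed the filter through its knockdown arrays.

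H4C12 could not be given 1 direction. Its brightest probe set read 7.54, 7.44 and 7.90 in control and 6.83, 6.94 and 7.09 in knockdown, a fall of 0.68 (SE 0.09, adjusted p = 5.998e-06), but its other probe set rose by 0.24 (adjusted p = 0.0299 over all probe sets). Another probe set, shared with the neighbouring copy H4C11 and so outside the rule, rose from 6.21 ± 0.16 to 7.14 ± 0.15, by 0.93 (adjusted p = 3.72e-07). All 3 are taken from the same array values, so H4C12 rests on which probes are read.

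**Figure D3:**
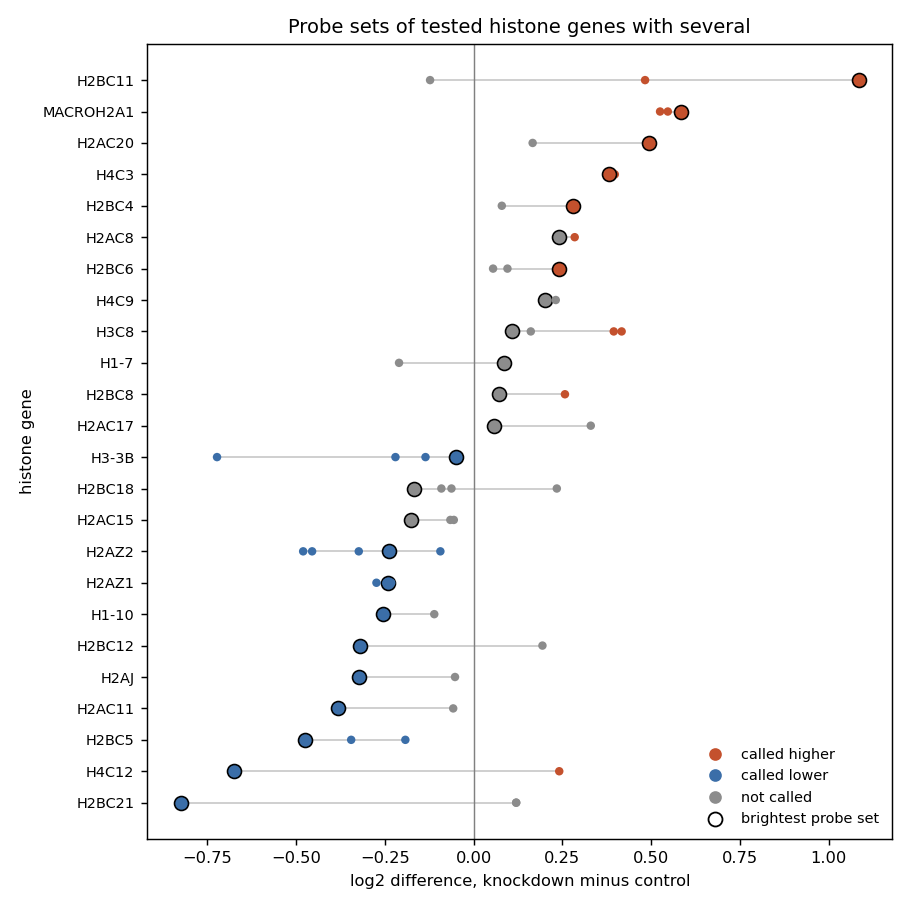
Log2 difference, knockdown minus control (x axis), of every single-symbol probe set of the 24 tested histone genes that have several (y axis), from a fit of every human probe set with dim ones kept in. The outlined point is the brightest probe set; H4C12 has probe sets called in both directions, at -0.68 and 0.24, and H2BC21 ranges from -0.82 to 0.12.

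Across the members, 37 had more than 1 probe set. In 22 of them at least 1 probe set was called in the fit over all probe sets: in 6 every probe set was called the same way, in 15 some were called and others were not, and in H4C12 calls went both ways. The same shares over all genes with several probe sets were not counted, so these counts have no background. Of the 37 brightest probe sets tested, 13 carry the suffix _s and 6 the suffix _x, by which the manufacturer marks probe sets that can match several transcripts. Near-identical copies can therefore share signal, and values of single cluster genes are uncertain in that sense.

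Calls were also counted by brightness. Above a mean of 6.70, the median of all 18132 genes, 3 of 8 replication-dependent genes rose (H1-2, H2AC6 and H4C3) and 5 fell (H1-10, H2BC5, H2BC12, H2BC21 and H4C12). Between the filter and that median, 11 of 22 rose and 1, H2AC11, fell. Over all tested genes 32.4% rose and 34.1% fell, but their shares within each range were not counted. The split at the median was chosen after the values were seen, and the difference between the 2 ranges was not tested. Of the 5 bright genes counted as lower, H4C12 has another probe set called higher and H2BC12 lost its call as the mean of its probe sets. H1-10, also among them, is expressed outside S phase. The place of H2AC6 and H2BC21 in the bright range follows from their own change. H2AC6 had a control mean of 6.59 and passed the split through its knockdown arrays. H2BC21 had a knockdown mean of 6.30 and passed it through its control arrays.

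The 38 dim members, all with means under 4.635, ranged from -0.19 to 0.46 with a median of 0.05. With no filter, 4 of them were called higher, H2AC7 (0.46), H4C16 (0.39), H4C2 (0.38) and H1-4 (0.34), and the rest were not called in that fit. The share of all genes below the filter that were called in that fit was not counted, so these calls have no background. H1-4 and H3C12 were the members just under the filter, at means of 4.63 and 4.51, and H2AC15 and H4C9 those just over it, at 4.66 and 4.69. Detection calls were not used here, so these genes cannot be called absent.

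Probe sets shared by several histone genes lie outside the rule but read the same families. Of 13, 3 were higher and 4 lower in the fit over all probe sets. The share of all probe sets called in that fit was not counted. The 3 higher ones read replication-dependent genes, and the 4 lower ones read the variant genes H3-3A or H3-3B. The probe sets of H4C14 and H4C15 stood at 0.38 (from 7.56 ± 0.01 to 7.95 ± 0.03) and, on a dim probe set, at -0.02. The bright probe sets of H2AC18 and H2AC19 did not change by the test, at 0.01 and -0.02, with control means of 8.81 and 8.17.

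For 5 of the 11 head-to-head pairs both genes were tested, and for 3 of these both were called, 2 in opposite directions and 1 in the same. In the pair of H2BC11 and H2AC11, with 247 bases between the starts, H2BC11 rose by 1.08 and H2AC11 fell by 0.38. In the pair of H2BC21 and H2AC20, 235 bases apart, the H2B gene fell by 0.82 and the H2A gene rose by 0.49. H2BC4 and H2AC6, 245 bases apart, both rose, by 0.28 and 0.74. In the stretches printed above, the octamer begins 47, 46 and 123 bases upstream of the H2B start in these 3 pairs, in that order. Both opposite pairs depend on the probe set read: the other probe sets of H2BC21, H2AC20 and H2AC11 (the last at -0.06) were not called, and those of H2BC11 stood at 0.48, called, and at -0.12, not called. Of the 16 members called higher, 14 had a promoter window, as did all 11 called lower. Octamer matches were in the windows of 7 of 14 members called higher and 4 of 11 called lower, and H1 box matches in 4 of 14 and 0 of 11. The 4 with an H1 box match were H1-1, H1-2, H1-3 and H2AC20, and the match of H2AC20 lies downstream of the start. Only 1 of the 11 called lower was an H1 gene. Both motifs lie mainly in certain families, so these counts cannot separate motif from family.

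Among the variants, H2AX fell most. H2AX marks DNA breaks once phosphorylated, and its gene can give both a stem-loop and a polyadenylated mRNA. It read 11.14, 11.13 and 11.20 in control and 10.11, 10.07 and 10.10 in knockdown, a fall of 1.06 on the log2 scale (SE 0.03, adjusted p = 2.97e-15). The arrays of each group lay within 0.1 of each other, about a 1-unit step apart; the gene has 1 probe set, so no second reading was possible. The 130 bases upstream of its start are shown with CCAAT, on both strands, and TATAAA in capitals; these begin 67 and 81 (reverse) and 31 bases upstream. CCAAT on either strand was in 35.7% of all promoter windows.
H2AX, chr11:119095466-119095595, minus strand: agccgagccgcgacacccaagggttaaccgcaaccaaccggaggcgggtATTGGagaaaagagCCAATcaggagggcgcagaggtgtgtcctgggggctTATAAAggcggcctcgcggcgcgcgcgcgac

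Both genes of H2A.Z, the variant placed at promoters by the SRCAP and EP400 complexes, fell by small and nearly equal amounts. H2AZ1 went from 12.81 ± 0.03 to 12.57 ± 0.01, a fall of 0.24 (adjusted p = 4.09e-09), and H2AZ2 from 12.42 ± 0.00 to 12.18 ± 0.01, also a fall of 0.24 (adjusted p = 2.91e-09). All 4 probe sets of H2AZ1 (-0.23 to -0.27) and all 5 of H2AZ2 (-0.09 to -0.48) were called lower. The log2 difference between the genes within each array was 0.396 ± 0.024 in control and 0.394 ± 0.020 in knockdown (exact two-sided permutation test, p = 1). The 85 non-human control probe sets of the array differed between the groups by -0.22 to 0.20, just under the size of these falls.

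The macroH2A genes, whose proteins carry a large extra domain and mark silent chromatin, rose together. MACROH2A1 read 10.66, 10.56 and 10.51 in control and 11.17, 11.17 and 11.15 in knockdown, a rise of 0.58 (SE 0.03, adjusted p = 4.05e-11) with 0.53 and 0.55 on its other probe sets. The knockdown arrays were level and all above the controls. MACROH2A2 went from 6.86 ± 0.04 to 7.19 ± 0.03, a rise of 0.33 (adjusted p = 4.94e-05). The difference between the genes within an array widened by 0.25, from 3.72 ± 0.11 to 3.97 ± 0.03 (exact two-sided permutation test, p = 0.1, the smallest that 3 against 3 allows).

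H3.3, the H3 variant laid down outside replication, is encoded by H3-3A and H3-3B, which give the same protein. H3-3B fell by 0.05 on its brightest probe set (adjusted p = 0.0251), less than the spread of the non-human controls, and this call was lost when control replicate 2 (-0.04) or knockdown replicate 1 (-0.04) or 2 (-0.05) was left out. Its other 3 probe sets were also called lower, at -0.14, -0.22 and -0.72. The only single-symbol probe set of H3-3A was dim, at 2.44 in control and 2.42 in knockdown, near the lowest value on the arrays (1.95), so the balance of H3-3A and H3-3B could not be tested. The 3 bright probe sets that H3-3A shares with the pseudogene H3P6 fell by 0.14 to 0.21. H2AJ fell by 0.32 (adjusted p = 0.00310), with a second probe set at -0.05 not called and the mean of both, at -0.19, not called either. CENPA, the centromeric H3 variant outside the rule, rose by 0.13 (adjusted p = 0.00101), also within the range of the controls.

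Genes listed for histone transcription and mRNA processing rose more often than they fell. The list is broad and also holds genes of wider RNA processing, such as PAPOLA, CPSF6 and SRRT. Of 35 listed 34 were tested, of which 23 rose and 7 fell, with a median of 0.23. The list was called in 88.2% of cases, against the 66.5% of all genes, which were not matched to it for brightness. On probe sets with the plain suffix _at alone, 6 rose and 4 fell of 17. SLBP, which binds the stem-loop, rose by 0.17 (adjusted p = 0.000376) and NPAT, the cyclin E-CDK2 substrate that switches on histone transcription, by 0.28 (adjusted p = 0.000127), though NPAT was not called on its probe set with the plain suffix _at (0.09). The rise of SLBP lay within the range of the non-human controls (-0.22 to 0.20). CPSF3, the nuclease of 3' end cleavage, rose from 8.21 ± 0.06 to 8.82 ± 0.03, by 0.61 (adjusted p = 1.06e-09). Its partner in the cleavage complex, CPSF2, rose by 1.14 and had the largest change of the list (adjusted p = 1.08e-13).

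Of the U7 snRNP proteins, which direct the cleavage, LSM11 rose by 0.72 (adjusted p = 9.31e-07) and LSM10, at 0.01, did not pass on its brightest probe set but did as the mean of its probe sets (0.07). CASP8AP2, or FLASH, rose by 0.20 and ZNF473 by 0.19. The call of ZNF473 was lost without knockdown replicate 1 (0.15), and its rise lay within the range of the non-human controls. The kinase gene CDK2 rose by 0.94. On the other side, CCNA2, the cyclin whose kinase marks SLBP for loss, fell by 1.03, the cap-binding protein gene NCBP2 by 0.38, the transcription factor gene E2F1 by 0.36 and UPF1, an RNA helicase used in histone mRNA decay, by 0.18. The fall of UPF1 also lay within the range of the non-human controls.

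Histone chaperones and exchange factors were split. Of 47 listed 46 were tested, and 19 rose, 14 fell and 13 did not pass, with a median of 0.04. This was 71.7% called, against 66.5% of all genes. The 2 subunits of FACT, which moves H2A-H2B dimers, went opposite ways: SUPT16H rose by 0.93 (adjusted p = 3.08e-14) and SSRP1 fell by 0.78 (adjusted p = 2.49e-13). So did the 2 forms of the H3-H4 chaperone ASF1, with ASF1A higher by 0.57 and ASF1B, the form tied to proliferation, lower by 0.77. The CAF-1 subunits CHAF1A and CHAF1B, which place new H3-H4 behind forks, each rose by 0.18, the latter without a call on its plain probe set (0.15). Both rises lay within the range of the non-human controls.

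For H3.3, the chaperone gene DAXX rose by 0.53 (adjusted p = 8.98e-10), HIRA fell by 0.53 (adjusted p = 0.000126) and ATRX, at 0.04, did not pass. HIRA spread widely, with 10.43 ± 0.22 in control and 9.90 ± 0.24 in knockdown, and its call was lost with robust eBayes (adjusted p = 0.0603). Of the ATPases shared by the H2A.Z exchange complexes, RUVBL2 rose by 0.66 and RUVBL1 by 0.62, but RUVBL2 stood at -0.14 without a call on probe sets with the plain suffix _at. Of the genes that load CENPA, MIS18A rose by 1.19 and OIP5 fell by 0.58. NASP, a chaperone for soluble H3-H4, rose by 0.28 on its brightest probe set, but the mean of its probe sets fell by 0.29 (adjusted p = 1.24e-05), so it has no settled direction.

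In the S-phase list, which shares SLBP with the processing list and MCM2 with the chaperones, 21 of 31 tested genes rose and 6 fell, with a median of 0.27. This was 87.1% called, against 66.5% of all genes, which were not matched to the list for brightness. On probe sets with the plain suffix _at alone, 3 rose and 3 fell of 9. The largest rises in the main fit were those of the primase gene PRIM1 (0.85) and the clamp loader genes RFC2 (0.71), RFC5 (0.69) and RFC3 (0.61). GINS1, of the replicative helicase, fell by 1.34, the ligase gene LIG1 by 0.44, MCM4 by 0.35 and the polymerase gene POLD1 by 0.35. These values stood beside those of the histone genes, and their part in them was not tested.

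**Figure D4:**
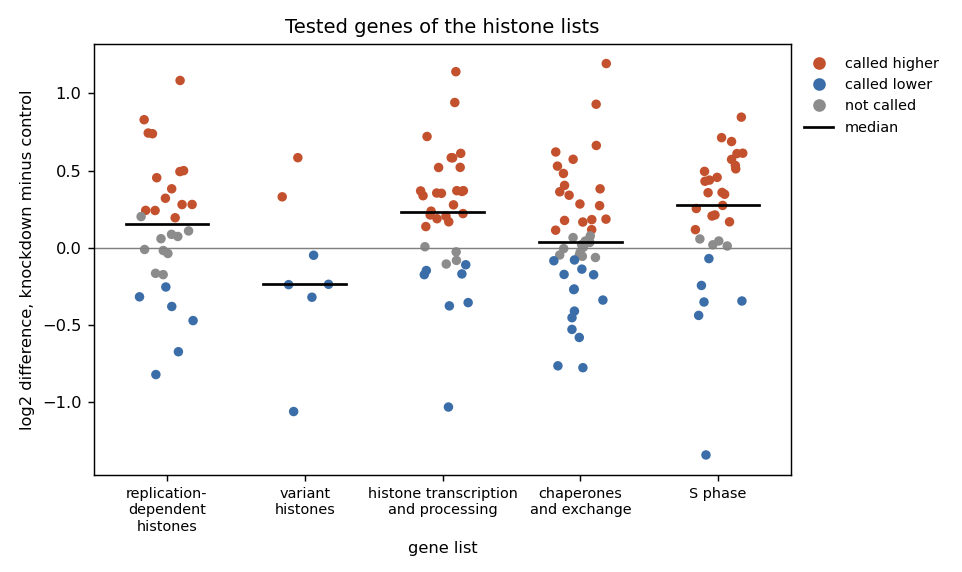
Log2 difference, knockdown minus control (y axis), of each tested gene of 5 lists (x axis); points are genes, black lines are medians, and the sideways scatter within a list has no meaning. Medians run from -0.24 for the variants to 0.27 for S phase, and every list holds genes called in both directions.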

How the data were processed

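The authors deposited log2 signals of 49395 probe sets, 1 column per array; MAS5 is named without a version, per the submitters' processing notes. That the scale is log2 was judged by the range of the values; the sources used here do not give the background correction, summarisation or scaling. Nothing was renormalized, so a shift of all genes cannot be seen. Of the probe sets, 44988 had 1 gene symbol, 1832 several and 2473 none, and 102 were array controls; 44961 matched a RefSeq gene table (GRCh38.p14) by Entrez ID, with 0 symbols changed. The brightest probe set stood for a gene, and the lowest 25% of genes by mean were left out.

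The groups were compared in R 4.3.3 with limma 3.58.1 (lmFit on group alone, then eBayes with its variance trend on intensity), and p-values were adjusted by Benjamini-Hochberg over the 13599 genes tested; single probe sets were fitted over all 49293 human probe sets. All adjusted p-values come from limma. The fit was also run on simulated data in which 200 genes were changed and arrays were drawn independently. In the real data 9037 genes were called, so the simulation does not show how the fit performs here. Exact permutation tests used scipy 1.17.1. Members and lists were chosen with earlier results of these data known. By rule, every tested histone gene was named, with array values from a difference of 0.4, along with core factors and the 4 largest changes each way in the other lists; head-to-head pairs, motifs and the split by brightness were chosen after values were seen. Alternatives were other filters, normalizations, probe set rules and variance models, blocking on the replicate number, and leaving out single arrays. Precision is limited by the number of arrays.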

Additional observations from a re-analysis of the deposited data

How the results depend on the processing

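Counts of calls stayed within 1.5 times under quantile normalization, median centring, no filter, the mean of probe sets, no intensity trend and robust eBayes. With a 50% filter 3 replication-dependent genes rose, of 8 tested. In the main fit 3 of the 8 replication-dependent genes above the median of all genes rose and 5 fell. Using only probe sets with the plain _at suffix tested 6265 genes, of which 1250 rose and 1650 fell. Then 9 of 33 replication-dependent genes rose, 1 variant rose and 1 fell of 2, and 6 processing genes rose and 4 fell of 17. Likewise 4 chaperones rose and 6 fell of 15, and 3 S-phase genes rose and 3 fell of 9. The count of replication-dependent genes that fell stayed within 1.5 times its main value with the 50% filter and with plain probe sets. Directions turned for H2BC21 with plain probe sets (0.12) and on its 2 other probe sets (0.12), for RUVBL2 with plain probe sets (-0.14), for NASP with the mean of probe sets (-0.29), and on other probe sets of H2BC11 (-0.12), H2BC12 (0.19) and H4C12 (0.24). The call of HIRA was lost with robust eBayes (adjusted p = 0.0603) that of H2AC8 without the trend, and that of H3-3B without the trend or with median centring. Beyond fewer genes tested, the cause was not tested.

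With each array left out in turn, 11 to 15 replication-dependent genes rose and 6 to 7 fell, and 2 variants rose and 4 to 5 fell. With the replicate number as a block, 14 replication-dependent genes rose and 6 fell, as without it. Same-numbered arrays deviated together with correlations of 0.08, 0.13 and 0.23, and 2 of the 3 correlated best with their own number. These values do not settle whether the numbers mark pairs, and the main fit did not treat them as pairs.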
